A study of Mus musculus with 6 samples.

Results

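The enzymes that write DNA methylation and the Tet dioxygenases that start its removal were examined in motor neurons (MNs) derived from mouse embryonic stem cells (mESCs). The 8 genes are Dnmt1, Dnmt3a, Dnmt3b, Dnmt3l, Uhrf1, Tet1, Tet2 and Tet3. They were found by symbol in the authors' deposited table of 41945 genes and loci, of which 37261 carry a gene symbol. Each gene had 1 entry of its own that names no other gene. The Hb9 control line is labelled wildtype and the A2 SMA line SMN2+/+;mSmn-/-, meaning that mouse Smn is lost and the human SMN2 transgene is present. According to the study's methods, the controls also carry SMN2, and both lines carry an HB9:eGFP reporter, which lights up cells that use the promoter of the MN gene Hb9 (Mnx1). Both are on the FVB/N background, and each genotype is represented by 1 cell line, so that an effect of genotype and any other difference between the lines cannot be told apart. Embryoid bodies were treated for 5 days with 1 µM retinoic acid and 1 µM Smoothened agonist, which together direct cells toward spinal MNs. GFP-positive cells were sorted, and their RNA was sequenced in 3 samples of each line.

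DNA methylation in mammals is placed mainly on cytosines followed by guanine (CpG sites). Dnmt3a and Dnmt3b set new methylation, Dnmt3l is a relative without catalytic activity that assists them, and Dnmt1 copies the pattern to the new strand after replication, guided there by Uhrf1, which recognizes half-methylated DNA. The Tet proteins oxidize methylated cytosine, which opens a way back to the unmodified base. Embryonic stem cells are known for high Dnmt3b, Dnmt3l and Tet1, whereas Dnmt3a and Tet3 are prominent in neurons.

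The 250 bases before the annotated start are shown for the 4 genes whose levels differed at least 2-fold between genotypes, because CpG sites are both the substrate of these enzymes and a feature of the promoters of their own genes. The sequences are RefSeq's for GRCm38.p6, which is a later build than that of the expression table, and are written 5′ to 3′ on the strand of the gene with each CpG in capitals. RefSeq windows were found for all 8 genes (15 windows in all). Dnmt3l has 3 annotated starts, of which the most upstream is shown. None of the 4 windows overlaps a GENCODE M21 exon of its gene, and those of Dnmt3l, Tet1 and Tet3 lie within the span of the gene as GENCODE draws it.
Dnmt3b (chr2:153649199-153649448, plus strand): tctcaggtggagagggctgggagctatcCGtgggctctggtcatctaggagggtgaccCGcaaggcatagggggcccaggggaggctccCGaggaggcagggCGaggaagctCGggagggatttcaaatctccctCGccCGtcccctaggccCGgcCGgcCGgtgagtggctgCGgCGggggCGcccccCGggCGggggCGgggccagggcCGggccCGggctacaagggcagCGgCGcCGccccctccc
Dnmt3l (chr10:78042037-78042286, plus strand): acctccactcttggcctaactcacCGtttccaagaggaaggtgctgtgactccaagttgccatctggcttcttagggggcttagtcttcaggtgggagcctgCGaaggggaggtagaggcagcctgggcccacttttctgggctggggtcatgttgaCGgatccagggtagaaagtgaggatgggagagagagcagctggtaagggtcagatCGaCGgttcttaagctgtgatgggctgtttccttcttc
Tet1 (chr10:62887325-62887574, minus strand): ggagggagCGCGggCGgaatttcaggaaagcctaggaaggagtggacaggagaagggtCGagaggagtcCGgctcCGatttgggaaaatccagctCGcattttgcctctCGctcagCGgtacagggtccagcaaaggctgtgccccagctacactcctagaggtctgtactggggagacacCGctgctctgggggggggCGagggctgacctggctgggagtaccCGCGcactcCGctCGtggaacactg
Tet3 (chr6:83441679-83441928, minus strand): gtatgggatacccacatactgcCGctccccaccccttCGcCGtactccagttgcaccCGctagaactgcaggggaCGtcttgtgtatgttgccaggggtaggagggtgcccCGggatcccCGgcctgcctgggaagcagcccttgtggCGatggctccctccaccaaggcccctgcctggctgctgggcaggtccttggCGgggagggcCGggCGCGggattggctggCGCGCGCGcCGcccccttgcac

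The window of Dnmt3b holds 21 CpG sites, that of Tet3 17 and that of Tet1 15. The Dnmt3l window holds 5. Across 32851 windows of the same length the median was 6 sites, so that the first 3 genes have CpG-rich starts and Dnmt3l does not. The other Dnmt3l starts, with 4 and 3 CpG sites, were also poor in them. A GC box, searched as GGGCGG on both strands, was found in the windows of Dnmt3b, Tet1 and Tet3, and in 32.7% of all windows. The CCAAT box, searched as CCAAT on both strands, was found in that of Tet3 and in 33.8% of all windows. Neither the octamer ATGCAAAT (1.60% of all windows) nor GGCGGGAA, a form of the site bound by E2F factors (1.86% of all windows), was found in any of the 4 windows on either strand. GGCGGGAA was found in the more upstream of the Uhrf1 windows. GGCGGGAA can overlap a GC box by sharing its GGCGG letters. These matches describe the letters and say nothing about binding.

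The values below are FPKM, fragment counts divided by transcript length and by the number of mapped fragments, which allow levels of different genes to be compared. The table gives 1 pooled value per genotype for the 3 samples behind it. Values of single samples were not analysed here, so no SD, standard error or test is given, the table gives no read count behind a value, and no statement can be made on whether a difference exceeds the spread between replicates. Ratios are A2 SMA over Hb9 control, without a pseudocount. In the absence of a test, a gene was called higher or lower at a difference of at least 2-fold, and entries that carry a symbol, reach 1 FPKM in one or the other genotype and are above 0 in both served as the background (14926 entries, among them all 8 genes). The median log2 ratio of these entries was -0.29, so that a typical gene was lower in A2 SMA MNs. In bulk RNA, fewer cells of a type and less RNA per cell cannot be told apart.

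Dnmt3b, Dnmt3l and Tet1 were at least 2-fold higher in A2 SMA MNs and Tet3 was at least 2-fold lower. The other 4 genes, Dnmt1, Dnmt3a, Uhrf1 and Tet2, were higher by less than 2-fold. Among all entries, 6.83% were at least 2-fold higher and 22.4% at least 2-fold lower. So few genes give no measure of whether 3 of 8 and 1 of 8 depart from these shares. The 8 genes had a median log2 ratio of 0.49, and 7 of them were above the median of all entries. Relative to that median the same 3 genes were at least 2-fold higher and the same gene at least 2-fold lower, beside 10.4% and 16.5% of all entries on that scale.

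Cuffdiff, the authors' program, set the status FAIL on 6 of the 8 entries, including all 4 past 2-fold. This word marks entries for which a numerical problem stopped its test, although FPKM values are listed. Dnmt3a and Uhrf1 carry the status OK. The status was set on 14.0% of the background entries, and of those 2086 entries 5.66% were at least 2-fold higher and 16.0% at least 2-fold lower in A2 SMA MNs. Entries with this status had a median log2 ratio of -0.22.

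**Figure D1:**
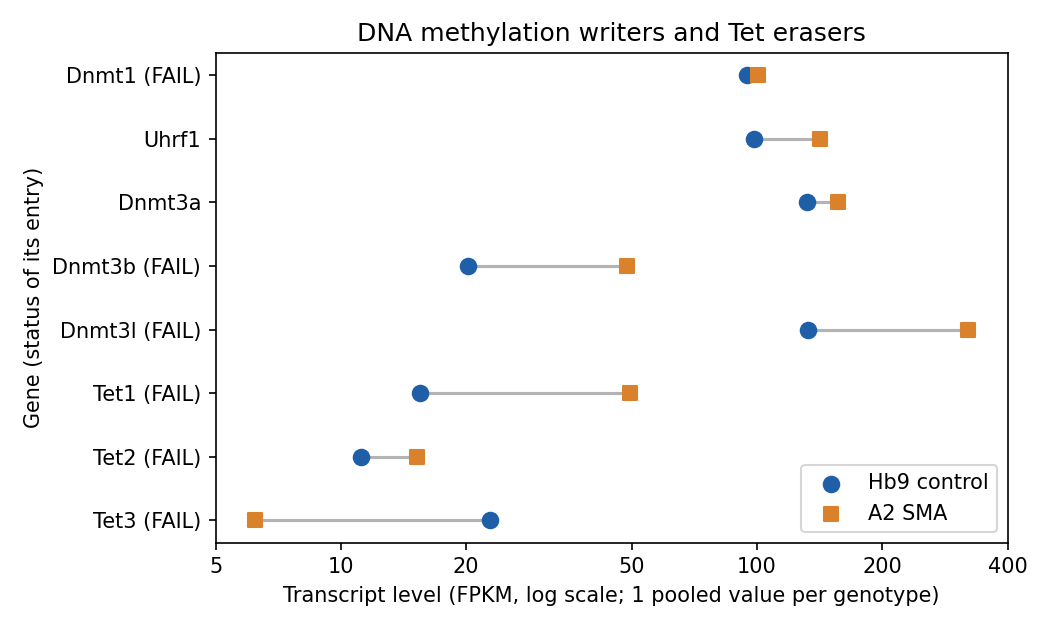
Level of each gene in FPKM (log axis) in Hb9 control (circles) and A2 SMA MNs (squares), with 1 pooled value per genotype and no error available; FAIL marks the status of the entry. Dnmt3b, Dnmt3l and Tet1 lie well to the right in A2 SMA MNs, Tet3 lies to the left, and the circle and square of Dnmt1 nearly coincide.

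The maintenance genes differed by less than 2-fold. Dnmt1, on chromosome 9 from 20711631 to 20757347 of NCBI m37, was at 94.4 FPKM in the controls and 101 FPKM in A2 SMA MNs. At 0.09, the log2 ratio of Dnmt1 was the smallest of the 8 in size, and it was 0.38 relative to the median entry. Uhrf1, on chromosome 17 from 56442735 to 56462909, was at 98.1 FPKM in the controls and 142 FPKM in A2 SMA MNs. This is a log2 ratio of 0.53, which was exceeded by 13.8% of all entries. Uhrf1 and Dnmt1 were thus at nearly the same level in Hb9 control MNs, with a ratio of Uhrf1 to Dnmt1 of 1.04, and Uhrf1 was the more abundant in A2 SMA MNs, with a ratio of 1.41. Ratios of genes within a genotype do not depend on how the genotypes are scaled to each other.

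Among the genes for new methylation, the level of the main enzyme differed least. Dnmt3a, on chromosome 12 from 3806007 to 3914443, was at 132 FPKM in the controls and 157 FPKM in A2 SMA MNs, giving a log2 ratio of 0.25. It is also transcribed from an internal start whose shorter product is used in stem cells, and a value per gene does not separate the forms. Dnmt3b, on chromosome 2 from 153474426 to 153513466, was at 20.2 FPKM in the controls and 48.6 FPKM in A2 SMA MNs. It was 2.41-fold higher, a log2 ratio of 1.27, and 4.78% of all entries had a higher ratio. Dnmt3l, the cofactor, lies on chromosome 10 from 77492767 to 77526367 and had the highest level of the 8 genes in both genotypes. Dnmt3l was at 133 FPKM in the controls and 321 FPKM in A2 SMA MNs, above 94.4% of all entries in the former and 99.1% in the latter.

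The log2 ratio of Dnmt3l was 1.27, as for Dnmt3b. The ratio of Dnmt3l to Dnmt3b was 6.57 in Hb9 control MNs and 6.59 in A2 SMA MNs. The proportion between these genes was thus nearly the same in both genotypes. Relative to Dnmt3a, both were higher in A2 SMA MNs. The ratio of Dnmt3b to Dnmt3a was 0.153 in Hb9 control MNs and 0.310 in A2 SMA MNs, and that of Dnmt3l to Dnmt3a was 1.01 and 2.05. Dnmt3l made up 46.6% of the summed Dnmt3 level in Hb9 control MNs and 61.0% in A2 SMA MNs, while the share of Dnmt3a was 46.3% and 29.8%. The locus of Dnmt3l in the table spans 33601 bases, more than the 21676 bases of the GENCODE M21 gene, and whether reads outside the gene add to its level was not tested. Its pseudogene Dnmt3l-ps1 was at 0.0549 FPKM in the controls and 0.0273 FPKM in A2 SMA MNs.

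The summed level of the catalytic Dnmt genes (Dnmt1, Dnmt3a and Dnmt3b) was 246 FPKM in the controls and 306 FPKM in A2 SMA MNs, a ratio of 1.24. Dnmt3b made up 8.20% of this sum in Hb9 control MNs and 15.9% in A2 SMA MNs, and Dnmt3a made up 53.5% and 51.2%. Most of the catalytic Dnmt RNA was therefore Dnmt3a and Dnmt1 in both genotypes.

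The Tet genes were lower in abundance than Dnmt1, Uhrf1, Dnmt3a and Dnmt3l in both genotypes, and they differed in opposite directions. Tet1, on chromosome 10 from 62267318 to 62361866, was at 15.5 FPKM in the controls and 49.5 FPKM in A2 SMA MNs. It was 3.20-fold higher, a log2 ratio of 1.68, and 2.76% of all entries had a higher ratio. Tet2, on chromosome 3 from 133126643 to 133207367, was at 11.2 FPKM in the controls and 15.2 FPKM in A2 SMA MNs, giving a log2 ratio of 0.45. Tet3, on chromosome 6 from 83312367 to 83406756, was at 22.8 FPKM in the controls and 6.22 FPKM in A2 SMA MNs. It was 3.67-fold lower, a log2 ratio of -1.87, and 9.92% of all entries had a lower ratio. Relative to the median entry its log2 ratio was -1.58.

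The order of the Tet genes differed between the genotypes. In Hb9 control MNs Tet3 was the most abundant, followed by Tet1 and Tet2, and in A2 SMA MNs Tet1 was the most abundant, followed by Tet2 and Tet3. The ratio of Tet1 to Tet3 was 0.680 in Hb9 control MNs and 7.96 in A2 SMA MNs, an 11.7-fold difference. Tet1 made up 31.3% of the summed Tet level in Hb9 control MNs and 69.8% in A2 SMA MNs. Tet3 made up 46.1% and 8.76%, whereas the share of Tet2 was 22.6% and 21.5%. The sum itself was 49.5 FPKM in the controls and 71.0 FPKM in A2 SMA MNs.

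**Figure D2:**
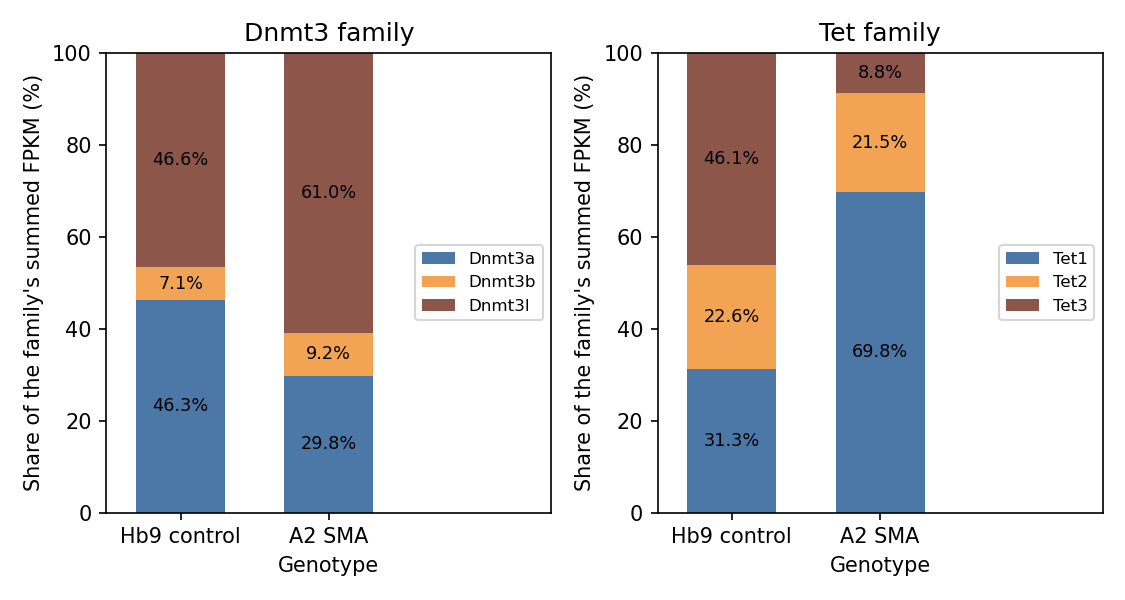
Share of the summed FPKM of the Dnmt3 genes (left) and of the Tet genes (right) taken by each gene, in percent, from 1 pooled value per genotype. Tet1 takes 31.3% of the Tet sum in Hb9 control and 69.8% in A2 SMA MNs, and Dnmt3l takes 46.6% and 61.0% of the Dnmt3 sum.

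Across the 8 genes the order of levels in Hb9 control MNs was Dnmt3l, Dnmt3a, Uhrf1, Dnmt1, Tet3, Dnmt3b, Tet1 and Tet2. In A2 SMA MNs the first 4 places were the same, and Tet1, Dnmt3b, Tet2 and Tet3 followed. With no spread over samples, it is not known which neighbours in these orders differ. Some are close in level, such as Dnmt3l and Dnmt3a in Hb9 control MNs (133 and 132 FPKM) and Tet1 and Dnmt3b in A2 SMA MNs (49.5 and 48.6 FPKM). Tet3 was above 56.8% of all entries in Hb9 control MNs and above 35.0% in A2 SMA MNs, and Tet1 was above 46.7% and 81.6%.

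**Figure D3:**
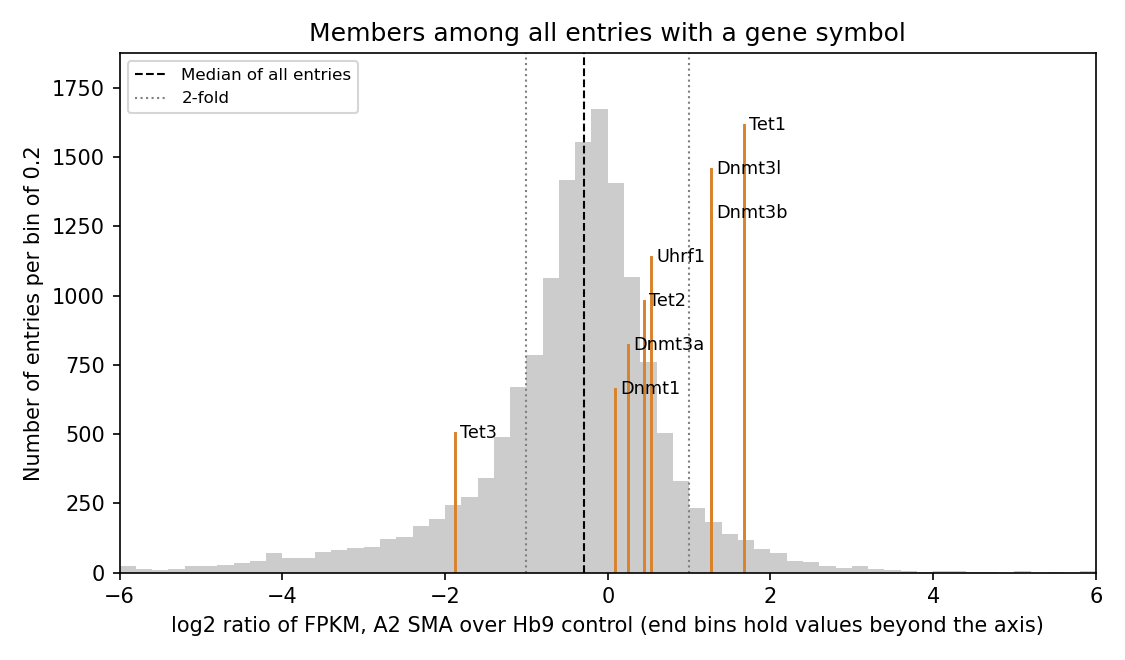
Number of entries by log2 ratio of A2 SMA over Hb9 control MNs (grey bars) with the 8 genes as orange lines whose height has no meaning, the median of all entries as a dashed line and 2-fold as dotted lines. Tet1, Dnmt3l and Dnmt3b stand in the right tail, Tet3 stands in the left tail, and the other 4 genes lie between the median and 2-fold higher.

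Other genes of the pathway were taken from 6 lists. The reader list, which holds the methyl-CpG binding domain family, zinc finger proteins that bind methylated DNA and Uhrf2, showed none of their 11 genes at least 2-fold higher and 2 at least 2-fold lower in A2 SMA MNs, with a median log2 ratio of -0.43. Among all entries 6.83% were at least 2-fold higher and 22.4% at least 2-fold lower, so that the count of lower readers is near the background. Zbtb4, a zinc finger protein that binds methylated DNA, had a log2 ratio of -1.35. Mbd3, a subunit of the NuRD complex that in mammals does not itself prefer methylated CpG sites, was the most abundant of the list, at 180 FPKM in the controls and 186 FPKM in A2 SMA MNs. Set against the median entry 1 reader, Zbtb4, was at least 2-fold lower, beside 16.5% of all entries.

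The cofactors and recruiters of DNA methylation showed 3 of 15 genes at least 2-fold higher and none at least 2-fold lower, beside 6.83% and 22.4% of all entries, with a median log2 ratio of 0.20. Hells, a chromatin remodeler needed for methylation of repeats, was at 118 FPKM in the controls and 236 FPKM in A2 SMA MNs (log2 ratio 1.00). Hells thus lies at the 2-fold bound, and with a pseudocount of 1 FPKM the list had 2 genes at least 2-fold higher. The other genes called higher were Prdm14 and Dppa3, with log2 ratios of 1.96 and 1.27. Both are known to counteract methylation in early embryonic and germ cells, so that the genes of this list called higher do not all act in the direction its name gives. Prdm14 was at 3.80 FPKM in the controls and 14.8 FPKM in A2 SMA MNs, and Dppa3 at 5.71 and 13.7 FPKM. Trim28, which recruits silencing enzymes to repeats and imprinted loci, was the most abundant of the list, at 1009 and 1897 FPKM, and stayed below 2-fold with a log2 ratio of 0.91 and the status FAIL. Set against the median entry, 4 genes of the list were at least 2-fold higher, beside 10.4% of all entries.

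Among 14 base excision and other demethylation genes above the FPKM minimum (of 15 in the list), none was at least 2-fold higher and 3 were at least 2-fold lower, with a median log2 ratio of -0.26. Among all entries 6.83% were at least 2-fold higher and 22.4% at least 2-fold lower. The 3 lower genes of 14 are close to the latter share. Gadd45g, a stress-inducible gene also used during neuronal differentiation, was at 86.7 FPKM in the controls and 13.3 FPKM in A2 SMA MNs (log2 ratio -2.70). Its relative Gadd45a was higher in A2 SMA MNs, with a log2 ratio of 0.94. The glycosylase genes Smug1 and Neil3, whose products remove damaged bases, had log2 ratios of -1.19 and -1.17. Relative to the median entry, 2 of the 14 genes were at least 2-fold higher, among them Gadd45a at 1.23, and 1 (Gadd45g) was lower. On that scale 10.4% of all entries were at least 2-fold higher and 16.5% at least 2-fold lower.

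The supply of the methyl donor S-adenosylmethionine showed none of 7 genes past 2-fold in either direction (median log2 ratio 0.03). Ahcyl1 lay just short of it at -0.98. Among all entries 6.83% were at least 2-fold higher and 22.4% at least 2-fold lower. With 7 genes, a count of none gives no measure of a departure from these shares. In the list for the Tet substrates 2-oxoglutarate and ascorbate, 1 of 10 genes was at least 2-fold higher and none at least 2-fold lower, with a median of -0.06. The count of 1 in 10 is near the 6.83% of all entries. Set against the median entry, 3 of them were at least 2-fold higher, beside 10.4% of all entries. The gene called higher was Slc23a1, an ascorbate transporter, at 0.545 FPKM in the controls and 2.45 FPKM in A2 SMA MNs with the status FAIL. The more abundant ascorbate transporter Slc23a2 was at 16.1 and 30.4 FPKM.

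Genes whose promoters are known to be kept silent by DNA methylation in somatic cells, most of them germline genes, were listed in both genotypes. Of 13 such genes above the minimum (15 of the 16 in the list were found), 2 were at least 2-fold higher and 1 at least 2-fold lower in A2 SMA MNs, with a median log2 ratio of 0.14. The shares of all entries were 6.83% and 22.4%. Relative to the median entry 5 were at least 2-fold higher and 1 lower, beside 10.4% and 16.5% of all entries. Dazl, a germ cell RNA-binding protein, was at 67.6 FPKM in the controls and 119 FPKM in A2 SMA MNs. Hormad1 and Tuba3a had log2 ratios of 1.47 and 1.22, and Tdrkh was lower at -1.64. DNA methylation itself was not measured in these samples.

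The genes of the writers and erasers were read beside markers of the cells that a GFP gate may hold. In A2 SMA MNs, 10 of 11 motor neuron and pan-neuronal genes above the minimum were at least 2-fold lower, beside 22.4% of all entries, and their median log2 ratio was -4.13. Lhx3, which specifies MN identity, was at 27.6 FPKM in the controls and 0.348 FPKM in A2 SMA MNs, and Chat, the enzyme that makes acetylcholine, was at 15.5 and 0.344 FPKM. The MN label is therefore carried by Lhx3 and Chat in Hb9 control MNs, whereas both are near 0 in A2 SMA MNs. Other genes of the list were lower but not near 0. Nefm was at 359 FPKM in the controls and 15.2 FPKM in A2 SMA MNs, and Isl1 at 108 and 5.95 FPKM. According to the study, plated cells of both lines stained for the MN proteins Hb9 and Islet-1. Mnx1, whose promoter drives the reporter, was the only gene of the list above the minimum that was not lower, at 41.2 and 44.2 FPKM. Smn1, the targeted gene, was at 137 FPKM in the controls and 5.26 FPKM in A2 SMA MNs.

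All 11 naive pluripotency genes were higher in A2 SMA MNs, 10 of them at least 2-fold (beside 6.83% of all entries), and their summed level was 308 FPKM in the controls and 1804 FPKM in A2 SMA MNs. None of them was at 0 in either genotype, and Pou5f1, a defining factor of pluripotent cells, was at 98.3 and 775 FPKM. These markers were higher in A2 SMA MNs, as were Dnmt3b, Dnmt3l and Tet1, and the part of these markers in those differences was not tested. The pluripotency list had a median log2 ratio of 2.51 and the highest ratio of the 8 genes was 1.68. Of 6 formative and primed pluripotency genes above the minimum, 3 were at least 2-fold higher and 1 at least 2-fold lower. The shares of all entries were 6.83% and 22.4%. Lef1 (status FAIL) had a log2 ratio of 3.21 and Sox3 of -3.52, and Fgf5, called higher, was at only 0.449 and 1.69 FPKM. The list summed to 94.2 FPKM in the controls and 95.1 FPKM in A2 SMA MNs. Without entries of the status FAIL, and likewise at a minimum of 5 FPKM, 2 genes were at least 2-fold higher. In the list for S phase and proliferation, the phase in which Dnmt1 and Uhrf1 act, 11 of 14 genes were higher in A2 SMA MNs and 1 (Mcm3) at least 2-fold, with summed levels of 1582 and 2141 FPKM. Set against the median entry, 4 of the 14 were at least 2-fold higher, beside 10.4% of all entries. Without this adjustment 34.1% of all entries were higher by any amount and 6.83% at least 2-fold, the latter near the 1 of 14. Its median log2 ratio was 0.55, close to the 0.53 of Uhrf1 and above the 0.09 of Dnmt1, and its part in these values was not tested.

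Lists for other cell types were mostly lower in A2 SMA MNs, as was Tet3. Of 8 neural progenitor genes, 6 were at least 2-fold lower (median log2 ratio -3.82), and Fabp7, a radial glia gene, was at 553 FPKM in the controls and 5.52 FPKM in A2 SMA MNs. The progenitor genes Sox2 and Pax6 differed by less than 2-fold. Sox2 was at 179 FPKM in the controls and 197 FPKM in A2 SMA MNs, and Pax6 at 22.4 and 21.4 FPKM. The summed level of the progenitor list was 2512 FPKM in the controls and 417 FPKM in A2 SMA MNs. Vim alone was at 1436 and 178 FPKM. The sum of the motor neuron and pan-neuronal genes was 1386 and 181 FPKM. The part of either list in the level of Tet3 was not tested. At least 2-fold lower were also 4 of 6 glial genes, 3 of 5 endoderm genes and 5 of 7 genes of feeder fibroblasts, on which the mESCs had been grown, beside 22.4% of all entries. The feeder gene Thy1, which neurons also express, was at least 2-fold higher, with a log2 ratio of 1.18. Feeder genes had a summed level of 63.6 FPKM in the controls and 32.4 FPKM in A2 SMA MNs. Set against the median entry, the counts at least 2-fold lower were 4 glial, 2 endoderm and 2 feeder genes, beside 16.5% of all entries, and Thy1 was again at least 2-fold higher. Of 3 mesoderm genes above the minimum, 1 was at least 2-fold higher and 1 at least 2-fold lower, beside 6.83% and 22.4% of all entries. Set against the median entry 2 were higher and 1 lower, beside 10.4% and 16.5% of all entries. These counts rest on few and mostly low genes, and were 0 and 0 at a minimum of 5 FPKM and 2 and 2 with no minimum, without that adjustment. The Y-linked genes Ddx3y, Eif2s3y, Uty and Kdm5d were expressed in both lines and higher in A2 SMA MNs (log2 ratios from 0.88 to 2.48), with Xist at 0.155 FPKM in the controls and 0.313 FPKM in A2 SMA MNs.

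**Figure D4:**
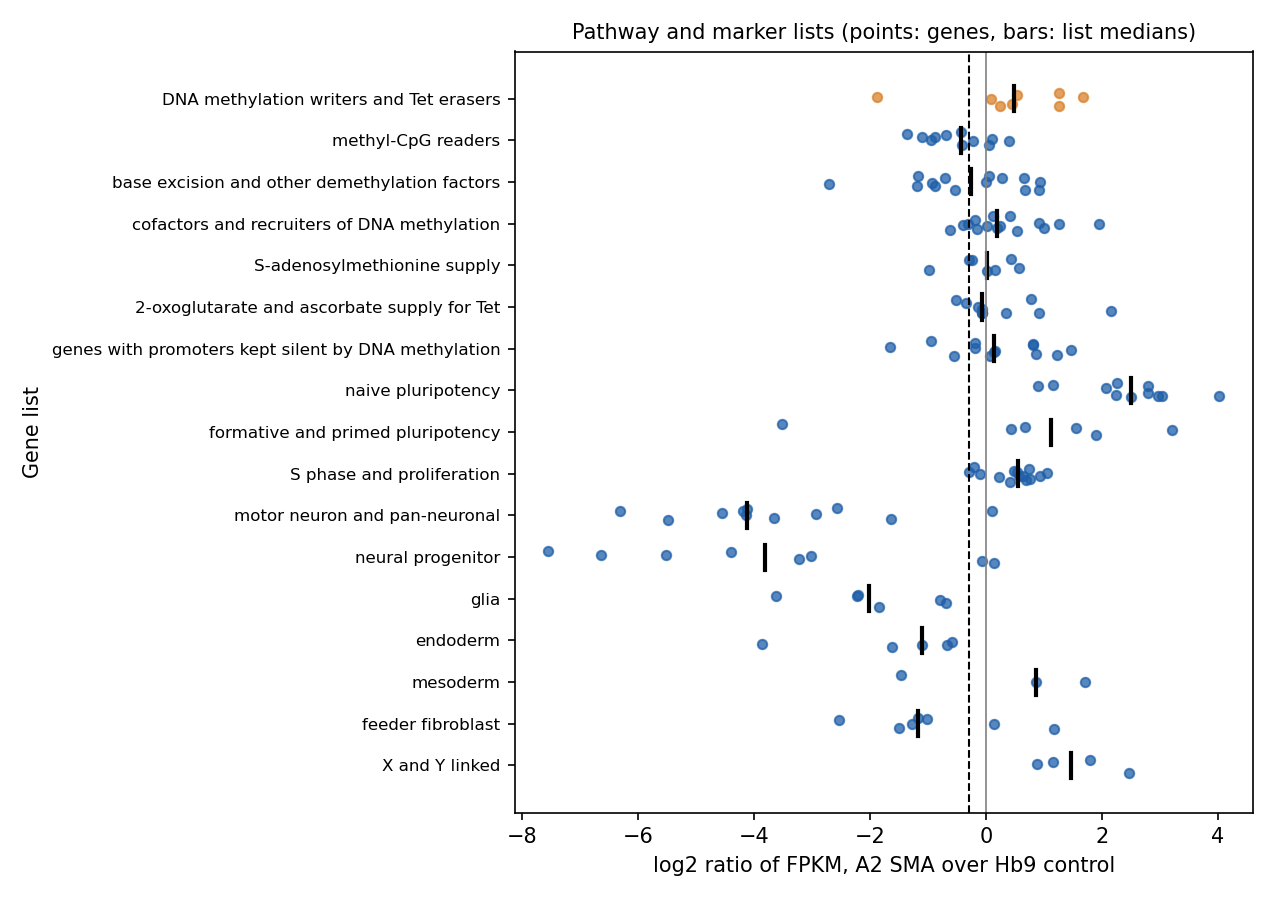
Log2 ratio of A2 SMA over Hb9 control MNs for each gene (points) of the DNA methylation writers and Tet erasers (orange) and of 16 other lists (blue), for genes that reach 1 FPKM in one or the other genotype, with list medians as black bars, 0 as a solid line and the median of all entries as a dashed line. The naive pluripotency genes all lie to the right of 0, most genes of the motor neuron and neural progenitor lists lie to the left, and the 8 genes spread from Tet3 at -1.87 to Tet1 at 1.68.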

How the data were processed

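MN RNA from 3 Hb9 control and 3 A2 SMA samples had been sequenced with a kit that is not described as stranded. According to the study's methods and the submitters' processing notes, the authors checked reads with FastQC (0.10.1), trimmed them with CutAdapt, aligned them with TopHat2 (2.04) to the mouse build NCBI m37, and used Cufflinks for assembly and Cuffdiff for comparison. Its deposited gene table holds 1 FPKM value per genotype and a status word, which were used, and the authors' fold changes, test statistics, p-values and q-values, which were not used. The table lists 19582 entries as OK, 19615 as NOTEST, 2747 as FAIL and 1 as LOWDATA.

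Symbols were split at commas, and the entry with the highest FPKM was taken. Log2 ratios were formed with Python 3.11.15, numpy 2.4.6 and pandas 2.3.3, and figures drawn with matplotlib 3.10.9. The calling code was checked on simulated data with planted 4-fold changes. That check says nothing about the spread between replicates of these data. With 1 value per genotype no test across genes was made. Locus starts were raised by 1 to count from 1, because among 26912 genes compared by length with GENCODE M21, end minus start equalled the gene length in 9796 and was 1 short of it in 256. The genes named are all 8 members and, per list, at most the 4 with the largest ratios in size plus the most abundant. The values of 1 gene of the reader list are not reported here. Mnx1, Smn1, Xist, Dnmt3l-ps1, Sox2 and Pax6 were chosen after their values were seen. The members and lists were chosen with earlier results of these data known. Alternatives were other scalings, pseudocounts, FPKM minimums, ways to treat shared, repeated or FAIL entries, and other folds. RefSeq promoter windows came from GRCm38.p6 and were joined by symbol.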

Additional observations from a re-analysis of the deposited data

How the results depend on the processing

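The 3 genes at least 2-fold higher in A2 SMA MNs (Dnmt3b, Dnmt3l, Tet1) and the 1 lower (Tet3) were called alike under all scalings, pseudocounts, FPKM minimums and treatments of shared entries, and at 1.5-fold. Both counts became 0 when entries with the status FAIL were left out, since all 4 carry it, and 0 when 4-fold was required. The log2 ratio of Tet1 ranged from 1.62 to 2.08, that of Dnmt3b from 1.23 to 1.67, that of Dnmt3l from 1.27 to 1.67 and that of Tet3 from -1.87 to -1.47. All 74 alternative ratios of the 8 genes lay within 1.5-fold of the reported ones, as did the 24 alternative ratios between genes. This was largely fixed by the settings. FPKM minimums and treatments of shared, repeated or FAIL entries could not change a gene's ratio, because each gene had 1 unshared entry. The scalings took off 1 log2 shift for all genes, at most -0.40 in size, which is less than 1.5-fold. In log2 units Dnmt1 ranged from 0.09 to 0.49 and Dnmt3a from 0.25 to 0.65. Of 384 list counts under alternatives, 59 moved beyond 1.5 times. No paired analysis was possible because the table gives 1 pooled value per genotype, and leaving out single samples was not possible for the same reason. The table gives no read count behind a value, so no counting error could be set.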
